A study of Rattus norvegicus with 12 samples.

Results

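The genes of transforming growth factor beta (TGF-beta) and activin signalling were followed in fetal rat metatarsals by RNA sequencing. The 10 genes were taken by name, with no rule on their values but with earlier results of these data known. They are the ligand genes Tgfb1, Tgfb2, Tgfb3 and Inhba, the receptor genes Tgfbr1, Tgfbr2 and Tgfbr3, and the inhibitor genes Fst, Smad7 and Skil. They make up 10 of the 30045 gene symbols in the count files, and all 10 had enough counts to be tested. The bones came from Sprague Dawley rats at embryonic day 19, with no genetic change named in the labels, and were cultured for 72 h. The control medium and the LiCl medium (10 mM of the lithium salt, an inhibitor of the kinase GSK3) received ethanol. Dexamethasone, a synthetic glucocorticoid, was given at 1 µM, and the combined group received dexamethasone and LiCl at those concentrations (dexamethasone + LiCl). Each group had 3 libraries, and each library was made from a pool of whole bones, so that cartilage, perichondrium and the other cells of the bone were measured together. Such bulk samples cannot tell fewer cells of a type from less RNA per cell.

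In this pathway a ligand dimer joins type I and type II receptors, which phosphorylate SMAD2 and SMAD3, and these enter the nucleus with SMAD4 and bind target genes. TGF-beta leaves the cell in a latent form held in the matrix, and activin is held in check by follistatin. In growth plate cartilage TGF-beta is known to slow the hypertrophy of chondrocytes, and both it and activin act on the perichondrium and on bone cells.

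Total counts per library were 9055581 to 21953446. Levels are in CPM, the counts of a gene brought to the same effective library size by the trimmed mean of M-values (TMM), and group levels are the mean ± SD of 3 pools. CPM is not divided by transcript length, so levels are compared between groups and not between genes. Differences are on the log2 scale (log2 fold change, with SE for its standard error), and p-values are from edgeR's quasi-likelihood test, adjusted over the 12602 genes tested. A gene passed at an adjusted p under 0.05. As the study describes it, each pool held bones of 1 rat, and 3 rats served for all 12 libraries, so the 4 groups share animals. The bones were dissected from fetuses and cultured in 3 experiments. The number of fetuses in a pool is not given, and rat and experiment cannot be told apart here. The labels call the libraries biological replicates but do not tie their numbers to rats, and the fit has no term for the rat, so calls that changed with a term for the replicate number (replicate block) are given beside the result. The chondrocyte markers summed to 56080 to 92880 CPM over all libraries, and Col2a1, the main cartilage collagen, had a mean of 48060 CPM in control.

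Dexamethasone raised Tgfbr3 and Fst and lowered Tgfb1, so that 3 of the 10 genes passed against control. Of all genes tested, 5.45% were higher and 5.49% were lower in this comparison. LiCl alone lowered Fst and Tgfb3, against 5.9% of all genes lower and 4.71% higher. LiCl added to dexamethasone lowered Fst and Inhba, against 4.78% of all genes lower and 3.82% higher. With both drugs, Tgfbr3 was higher than in control and Tgfb1, Tgfb3, Tgfbr2 and Inhba were lower, against 10.8% of all genes higher and 11.8% lower. The median log2 fold change of the 10 genes was -0.06 with dexamethasone, -0.05 with LiCl, -0.20 for LiCl added to dexamethasone and -0.22 for both drugs against control, where the medians over all genes lay between 0.00 and 0.01 in size. The comparisons with control share the control libraries. Pools that do not overlap were common over all genes tested. With dexamethasone 12.5% had every pool above every control pool and 12.7% had every pool below. These shares were 15.4% and 16.4% with LiCl, and 18.7% and 18.6% with both drugs against control. For LiCl added to dexamethasone they were 13.3% and 14.4%. All these shares are for single pairs of groups, and none was computed for patterns over several groups.

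**Figure D1:**
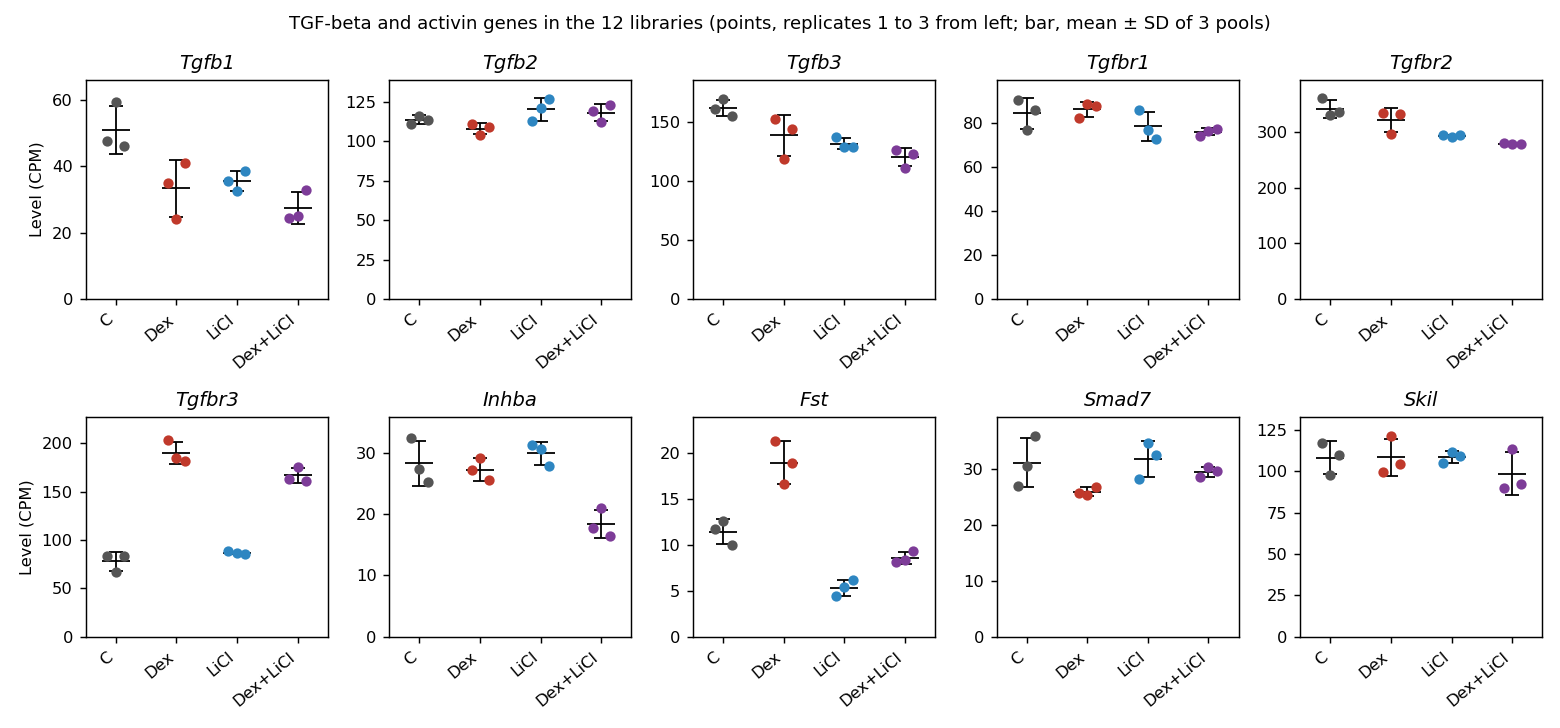
Levels in CPM (linear axes from 0, a scale of its own for each gene) of the 10 genes in control (C), dexamethasone (Dex), LiCl and dexamethasone + LiCl, where points are single pools and the bars show their mean ± SD (3 pools). For Tgfbr3 every dexamethasone pool (182 to 204 CPM) is above every control pool (66.7 to 83.4 CPM), and for Fst every LiCl pool (4.43 to 6.15 CPM) is below every control pool (9.93 to 12.6 CPM).

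**Figure D2:**
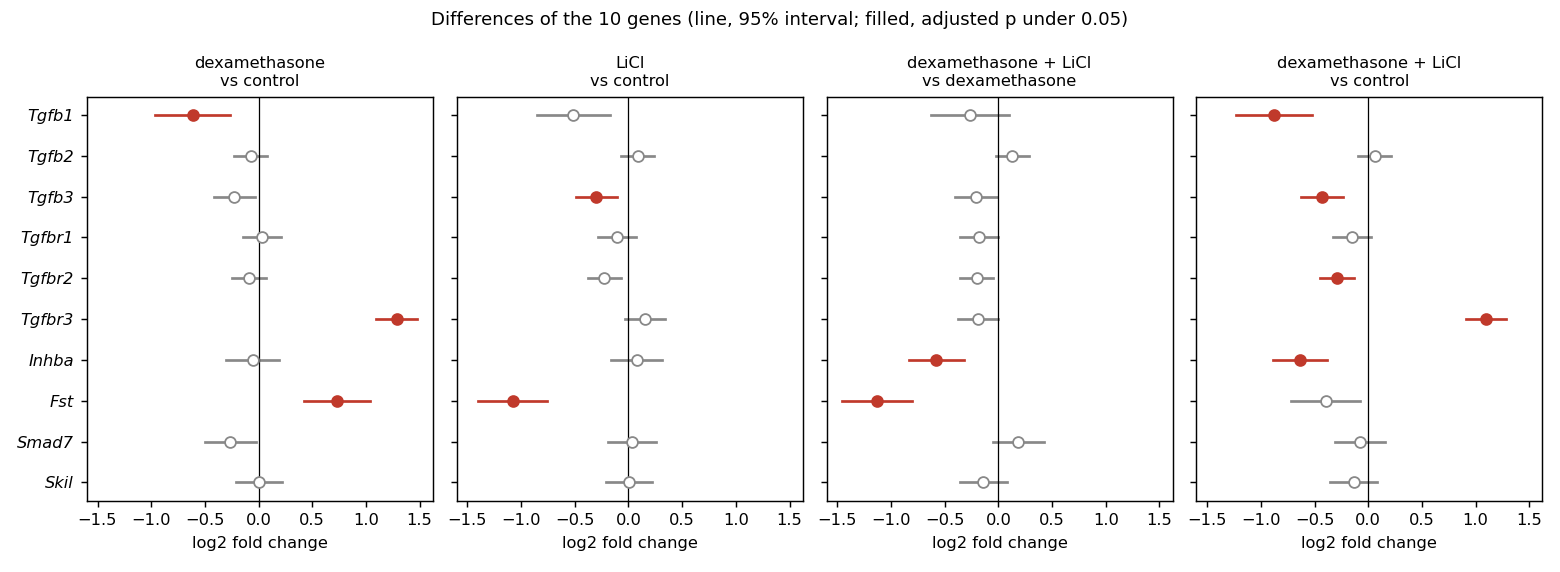
Log2 fold changes of the 10 genes in the 4 pairwise comparisons, with lines for the 95% confidence interval and filled points for an adjusted p under 0.05. Tgfbr3 lies at 1.29 with dexamethasone and at 1.10 with both drugs against control, and Fst lies at -1.08 with LiCl and at -1.13 when LiCl was added to dexamethasone.

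Among the ligands, Tgfb1, the most widely made TGF-beta isoform, was highest in control. Its level was 47.7, 59.2 and 46.0 CPM in the control pools and 35.0, 24.1 and 40.9 CPM in the dexamethasone pools. It was 35.4, 32.6 and 38.5 CPM with LiCl and 24.4, 24.9 and 32.8 CPM with dexamethasone + LiCl. All 9 treated pools thus lay below all 3 control pools, while the 3 treated groups overlapped one another. The shares of all genes given above are for single pairs of groups, and no share was computed for this pattern. The mean fell from 51.0 ± 7.23 CPM in control to 33.3 ± 8.53 CPM with dexamethasone, 1.53-fold lower (log2 fold change -0.61, SE 0.16, adjusted p = 0.0238). This call was lost without control replicate 2 (adjusted p = 0.0852), dexamethasone replicate 1 (0.0550) or dexamethasone replicate 2 (0.104), and when only these groups were fitted (0.0604). With LiCl the log2 fold change was -0.51 (SE 0.16, adjusted p = 0.0514), which missed the threshold. It passed in each of 6 other fits, with the replicate block (adjusted p = 0.0253), DESeq2 (0.0239), RLE scaling (0.0493), filterByExpr (0.0492), no count filter (0.00166) and only these groups (0.0208), and also without dexamethasone replicate 2 (0.0160), dexamethasone replicate 3 (0.0353) or dexamethasone + LiCl replicate 3 (0.0440). Tgfb1 missed the threshold with LiCl in the other 9 of the 12 fits with 1 library left out (adjusted p up to 0.168). With both drugs Tgfb1 was at 27.4 ± 4.73 CPM, 1.84-fold below control (log2 fold change -0.88, SE 0.16, adjusted p = 0.00120). That call held in every alternative fit with no fold minimum set. LiCl added to dexamethasone gave -0.26 (95% confidence interval -0.63 to 0.10, adjusted p = 0.399).

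Beside the lower Tgfb1, markers of cells other than chondrocytes moved as well. The summed level of 12 endothelial markers was 229 to 261 CPM in control, 94.6 to 104 CPM with dexamethasone, 209 to 231 CPM with LiCl and 109 to 119 CPM with both drugs, and 8 of the 10 that were tested were lower with dexamethasone than in control. The osteoclast markers summed to 162 to 181 CPM in control, 86.0 to 101 CPM with dexamethasone, 95.1 to 128 CPM with LiCl and 75.2 to 89.5 CPM with both drugs. All 3 osteoclast markers tested were lower than in control in each treated group, and Dcstamp, which drives the fusion of osteoclast precursors, had 0 counts in every library. The macrophage markers summed to 87.0 to 137 CPM in control, 216 to 250 CPM with dexamethasone, 81.6 to 85.8 CPM with LiCl and 172 to 209 CPM with both drugs. These markers did not move together. With dexamethasone Cd163, Mrc1, C1qa, C1qb and C1qc were higher (log2 fold change 0.69 to 9.12) and Cd68 was lower (-0.51), while Csf1r (-0.16), Aif1 (-0.58) and Ptprc (-0.45) did not pass. Of the 9, 4 were higher and 4 lower with both drugs, and 3 were lower and none higher with LiCl. The part of these cells in the level of Tgfb1 was not tested. The shares of all genes that passed in each comparison, given above, stand beside these and later marker counts.

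The 250 bases before the annotated start of Tgfb1 are shown because this gene fell with dexamethasone and the short form of the glucocorticoid receptor's binding motif can be read in them. They lie on rat chromosome 1 of build GRCr8 (RefSeq), chr1:90324062-90324311 on the plus strand. The capitals mark the half-site AGAACA, at -112 to -107 from the start.
Tgfb1: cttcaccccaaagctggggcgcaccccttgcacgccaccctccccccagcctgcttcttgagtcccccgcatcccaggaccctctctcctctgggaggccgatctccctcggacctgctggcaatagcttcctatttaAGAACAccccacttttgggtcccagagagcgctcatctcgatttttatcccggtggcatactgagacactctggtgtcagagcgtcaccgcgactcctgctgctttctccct
The half-site occurs on either strand in 17.5% of 33469 rat promoters of this length, so its presence here is a description and not a site. The full palindromic motif of the receptor, which 0.012% of the promoters hold, has no match in this window.

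Tgfb2, an isoform made by chondrocytes and perichondrium, did not pass in any comparison. It was at 111 to 116 CPM in control, 104 to 111 CPM with dexamethasone, 113 to 127 CPM with LiCl and 112 to 123 CPM with both drugs. Its 95% confidence interval for dexamethasone against control was -0.23 to 0.08 on the log2 scale, and for both drugs against control -0.10 to 0.21. When LiCl was added to dexamethasone, all 3 pools lay above all 3 dexamethasone pools, but the log2 fold change of 0.13 (SE 0.07) had an adjusted p = 0.316.

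Tgfb3, the isoform best known from palate fusion, was lower with LiCl. Its pools were at 162, 170 and 156 CPM in control. They were at 153, 119 and 145 CPM with dexamethasone, 138, 129 and 129 CPM with LiCl and 127, 112 and 123 CPM with both drugs. No treated pool reached the lowest control pool. The log2 fold change was -0.30 with LiCl (SE 0.09, adjusted p = 0.0467), -0.43 with both drugs (SE 0.09, adjusted p = 0.00303) and -0.23 with dexamethasone (SE 0.09, adjusted p = 0.138). The call with LiCl was lost without control replicate 1 (adjusted p = 0.0846), 2 (0.101) or 3 (0.0586), LiCl replicate 1 (0.0806), 2 (0.139) or 3 (0.148), dexamethasone replicate 3 (0.0528) or dexamethasone + LiCl replicate 1 (0.0616) or 3 (0.0608). The call with both drugs held in every alternative fit with no fold minimum set.

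Inhba, which encodes the subunit that forms activin A, fell when both drugs were present and did not pass with either drug alone. Its level was 32.5, 27.4 and 25.3 CPM in control, 27.2, 29.2 and 25.6 CPM with dexamethasone and 31.4, 30.7 and 27.9 CPM with LiCl. These groups overlapped one another, and neither drug alone gave a difference past its error (log2 fold change -0.06 with dexamethasone, 95% confidence interval -0.30 to 0.19, and 0.08 with LiCl, -0.16 to 0.31). With dexamethasone + LiCl the pools were at 17.7, 21.0 and 16.5 CPM, below every pool of the other groups. The mean fell to 18.4 ± 2.31 CPM, from 27.3 ± 1.83 CPM with dexamethasone (log2 fold change -0.58, SE 0.12, adjusted p = 0.00794, 1.49-fold lower) and from 28.4 ± 3.68 CPM in control (-0.63, SE 0.12, adjusted p = 0.00107, 1.55-fold lower). Both calls held in every alternative fit with no fold minimum set. The difference between the effect of LiCl with and without dexamethasone (interaction) was -0.65 on the log2 scale (SE 0.16, 95% confidence interval -1.004 to -0.304) with an unadjusted p of 0.00118, but its adjusted p was 0.446 with edgeR, 0.147 with DESeq2, 0.122 with the replicate block and 0.122 to 0.955 over all alternatives. The larger fall with dexamethasone present was therefore not shown after correction for all genes. Over all genes the interaction passed for 0% as higher and 0.00794% as lower.

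Of the receptors, Tgfbr3 rose most among the 10 genes. It encodes betaglycan, a co-receptor that presents TGF-beta to the signalling receptors and that binds inhibin. Its level was 83.4, 66.7 and 83.1 CPM in the control pools and 204, 185 and 182 CPM in the dexamethasone pools. With LiCl it was 88.1, 86.4 and 85.7 CPM, and with both drugs 163, 176 and 161 CPM. The pools thus fell into a low pair of groups without dexamethasone and a high pair with it, which did not overlap. Dexamethasone raised Tgfbr3 from 77.7 ± 9.58 to 190 ± 11.8 CPM, 2.44-fold (95% confidence interval 2.14 to 2.78), which is 1.29 on the log2 scale (SE 0.09, adjusted p = 1.1e-07). With both drugs it was at 167 ± 7.89 CPM, 2.14-fold above control (log2 fold change 1.10, SE 0.09, adjusted p = 3.6e-07). LiCl added to dexamethasone gave -0.19 (SE 0.09, adjusted p = 0.216), and LiCl alone 0.15 (SE 0.09, adjusted p = 0.293). The interaction was -0.34 (SE 0.12, unadjusted p = 0.0149, adjusted p = 0.809). Among 12602 genes, those whose levels over the 12 libraries were most like Tgfbr3 included Pik3r1, the regulatory subunit of phosphoinositide 3-kinase (Pearson's r = 0.992), and Zbtb16, a transcription factor gene (0.991). These points share their libraries and the 4 group means, so r describes the group pattern.

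The window before the start of Tgfbr3 is shown for comparison with that of Tgfb1, since the genes moved in opposite directions with dexamethasone. It lies at chr14:2634044-2634293 on the plus strand of GRCr8 (RefSeq).
Tgfbr3: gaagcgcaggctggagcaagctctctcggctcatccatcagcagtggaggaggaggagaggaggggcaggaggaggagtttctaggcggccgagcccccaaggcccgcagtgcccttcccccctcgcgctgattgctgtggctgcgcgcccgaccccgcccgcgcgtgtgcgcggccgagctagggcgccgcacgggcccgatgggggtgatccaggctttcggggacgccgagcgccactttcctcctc
Neither the half-site AGAACA nor the palindrome was found in it on either strand, which says only that these letters are not in this window. Of the 10 genes, 9 had an entry in the RefSeq promoter table, the exception being Fst, and Tgfb1 was the only one of the 9 with the half-site. The lymphoid enhancer factor (TCF/LEF) motif CTTTGAA, found in 4.68% of all promoters, occurred in that of Tgfb2 (-197 to -191), and CTTTGAT, found in 3.15%, in none of the 9.

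Tgfbr1 and Tgfbr2, which encode the signalling type I and type II receptors, changed little. Tgfbr1 was at 76.9 to 90.5 CPM in control, 82.5 to 89.1 CPM with dexamethasone, 73.1 to 86.0 CPM with LiCl and 74.4 to 77.6 CPM with both drugs, and did not pass in any comparison. Its log2 fold change with dexamethasone was 0.03 (95% confidence interval -0.15 to 0.20). Tgfbr2 was at 361, 330 and 336 CPM in control, 334, 297 and 333 CPM with dexamethasone, 294, 291 and 294 CPM with LiCl and 281, 278 and 279 CPM with both drugs. Control and dexamethasone overlapped, the LiCl pools lay below both, and those with both drugs lay below every other pool. With both drugs Tgfbr2 was 1.23-fold below control (log2 fold change -0.29, SE 0.07, adjusted p = 0.00934). The difference with LiCl was -0.22 (SE 0.07, adjusted p = 0.0640) and passed with the replicate block (adjusted p = 0.0330), with DESeq2 (0.00802) and without control replicate 2 (0.0488) or dexamethasone replicate 2 (0.0369). LiCl added to dexamethasone gave -0.20 (SE 0.07, adjusted p = 0.105), which passed with DESeq2 (0.0295) and without dexamethasone replicate 2 (0.0481). Of the 12 fits with 1 library left out, Tgfbr2 did not pass with LiCl in 10 (adjusted p up to 0.168). It did not pass for LiCl added to dexamethasone in 11 (up to 0.279).

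Within a library, Tgfbr3 had 20.2 to 24.8 counts per 100 counts of Tgfbr2 in control, 54.5 to 62.2 with dexamethasone, 29.1 to 29.95 with LiCl and 57.7 to 63.2 with both drugs. This ratio does not depend on library scaling, and its LiCl pools lay above its control pools, while the groups with dexamethasone overlapped each other.

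Of the inhibitors, Fst, which encodes follistatin, the secreted protein that binds activin and blocks it, moved in opposite directions with the 2 drugs. Its level was 11.8, 12.6 and 9.93 CPM in the control pools. It was 21.3, 16.6 and 18.9 CPM with dexamethasone, 4.43, 5.40 and 6.15 CPM with LiCl and 8.09, 8.30 and 9.34 CPM with both drugs. The 4 groups did not overlap and stood in the order dexamethasone, control, dexamethasone + LiCl and LiCl from high to low, with control and dexamethasone + LiCl not told apart by the test. Dexamethasone raised Fst 1.66-fold, from 11.4 ± 1.38 to 18.96 ± 2.35 CPM (log2 fold change 0.73, SE 0.14, adjusted p = 0.00305). LiCl lowered it 2.11-fold, to 5.33 ± 0.862 CPM (-1.08, SE 0.15, adjusted p = 0.000375). LiCl added to dexamethasone lowered it 2.19-fold, to 8.58 ± 0.672 CPM (-1.13, SE 0.15, adjusted p = 0.000255). These 3 calls held in every alternative fit with no fold minimum set. Against control, the group with both drugs was at -0.40 (SE 0.15, adjusted p = 0.0736), which passed only without control replicate 3 (0.0460). The fall with LiCl had a similar size with and without dexamethasone, and the interaction was -0.05 with a 95% confidence interval of -0.51 to 0.41 (adjusted p = 0.973).

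The genes most like Fst over the 12 libraries were Pcdh8, a protocadherin gene (Pearson's r = 0.973), Zcchc5 (0.965) and Ddah1, which encodes an enzyme that degrades a methylated arginine (0.961). Beside the lower Fst with LiCl, the adipocyte markers summed to 47.0 to 66.0 CPM in control and 21.6 to 23.0 CPM with LiCl, and all 4 that were tested were lower. Their sums were 46.85 to 61.0 CPM with dexamethasone and 37.1 to 51.6 CPM with both drugs. With dexamethasone, where Fst was higher, 2 of the 4 were lower than in control. None of the 4 passed when LiCl was added to dexamethasone, where Fst was lower. The skeletal muscle markers summed to 45.01 to 48.1 CPM in control, 78.5 to 116 CPM with dexamethasone, 76.7 to 83.0 CPM with LiCl and 190 to 236 CPM with both drugs. Their part in the level of Fst was not tested.

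Smad7 and Skil, which are induced by the pathway and feed back on it, did not pass in any comparison. SMAD7 blocks the type I receptor, and SKIL (SnoN) represses SMAD target genes in the nucleus. Smad7 was at 27.0 to 35.8 CPM in control, 25.4 to 26.8 CPM with dexamethasone, 28.2 to 34.6 CPM with LiCl and 28.5 to 30.3 CPM with both drugs. All dexamethasone pools lay below all control pools, at a difference of -0.26 (log2, SE 0.11, adjusted p = 0.154). Skil was at 97.6 to 117 CPM in control, 99.7 to 121 CPM with dexamethasone, 105 to 112 CPM with LiCl and 89.8 to 114 CPM with both drugs, and all groups overlapped. Its log2 fold change was 0.00 with dexamethasone (95% confidence interval -0.21 to 0.22) and 0.00 with LiCl (-0.21 to 0.22). The promoter of Skil held the SMAD half-site CAGAC at -227 to -223 and, on the other strand, at -104 to -100, and the cyclic AMP response element TGACGTCA at -53 to -46. CAGAC occurs in 42.9% and TGACGTCA in 1.59% of all promoters.

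Ratios within a library set the counts of Fst beside those of Inhba. These are RNA counts not divided by transcript length, so they are compared between groups and do not measure a balance of proteins. Inhbb, another activin subunit gene, was higher in each treated group (given below) and is not in the ratio. Fst had 36.2, 46.1 and 39.2 counts per 100 counts of Inhba in the control pools and 78.3, 56.9 and 74.1 in the dexamethasone pools. The ratio was 14.1, 17.6 and 22.1 with LiCl and 45.7, 39.6 and 56.5 with both drugs. The dexamethasone pools were thus above and the LiCl pools below all control pools, and the pools with both drugs overlapped control. Here both genes were lower with both drugs than with dexamethasone alone, and the ratio does not show which of them moved. Among the counts of the 3 TGF-beta ligand genes, Tgfb1 made up 14.6 to 17.2% in control, 9.74 to 13.9% with dexamethasone, 11.5 to 13.1% with LiCl and 9.02 to 11.8% with both drugs. The share of Tgfb2 was 33.7 to 36.03% in control and 44.1 to 45.1% with both drugs. No interval is given for these shares, since reads are not independent molecules.

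**Figure D3:**
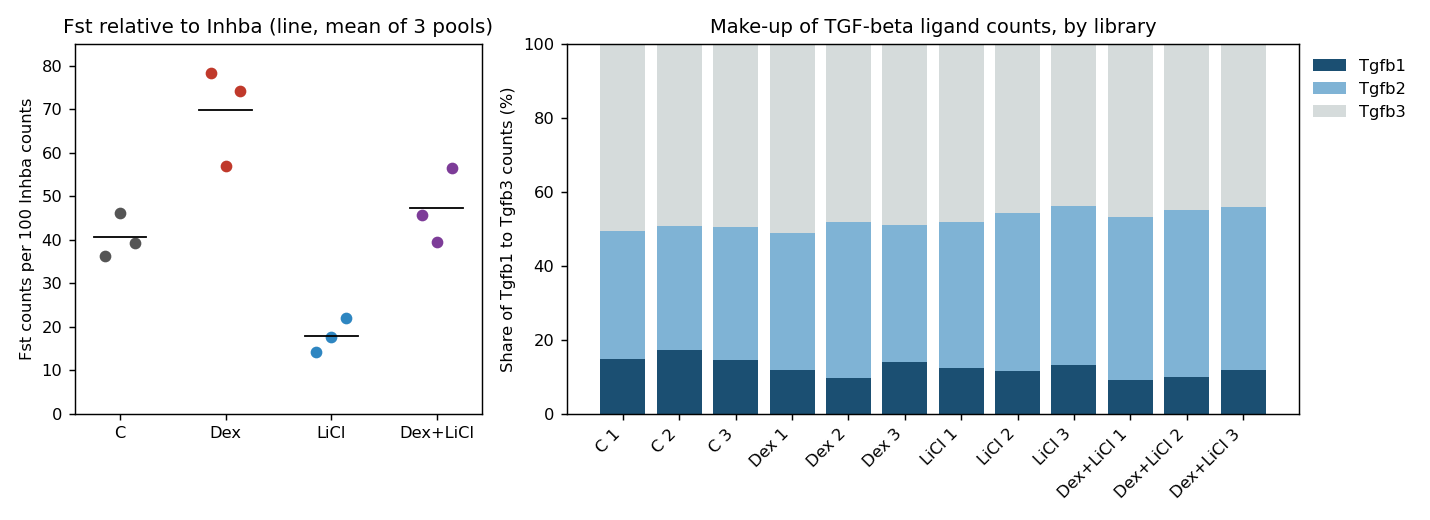
Left, counts of Fst per 100 counts of Inhba in each library, with a point for each pool and a line for the group mean. Right, shares (%) of Tgfb1, Tgfb2 and Tgfb3 in their summed counts for each of the 12 libraries. The LiCl pools (14.1 to 22.1) lie below and the dexamethasone pools (56.9 to 78.3) above the control pools (36.2 to 46.1) on the left, and the share of Tgfb1 is 14.6 to 17.2% in control on the right.

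The rest of the pathway was read from 7 lists of 70 other genes, of which 61 had enough counts to be tested. Dexamethasone raised 9 (14.8%) and lowered 8 (13.1%) of the 61, where 5.45% of all genes were higher and 5.49% lower. LiCl raised 6 (9.84%) and lowered 8 (13.1%), where 4.71% and 5.9% of all genes were. When added to dexamethasone, LiCl raised 4 (6.56%) and lowered 5 (8.2%), against 3.82% and 4.78%, and both drugs against control raised 10 (16.4%) and lowered 11 (18.0%), against 10.8% and 11.8%. The lists were chosen with earlier results of these data known and were not tested against all genes. The interaction passed for none of the 61 genes with edgeR or DESeq2. Their median log2 fold changes were -0.01, -0.08, -0.07 and -0.09 in the 4 pairwise comparisons. With the replicate block no call was lost, and 20 and not 17 passed with dexamethasone, 21 and not 14 with LiCl, 15 and not 9 when LiCl was added to dexamethasone, and 24 and not 21 with both drugs. Those gained were Ltbp1, Col1a1 and Tagln with dexamethasone, Furin, Acvr1b, Fmod, Smurf2, Col1a1, Tagln and Bhlhe40 with LiCl, and Bgn, Pmepa1 and Timp1 with both drugs. Among those gained when LiCl was added to dexamethasone were Cd109, Smad2, Ctgf, Postn and Bhlhe40. In all, 31 genes passed in at least 1 comparison and 30 in none.

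**Figure D4:**
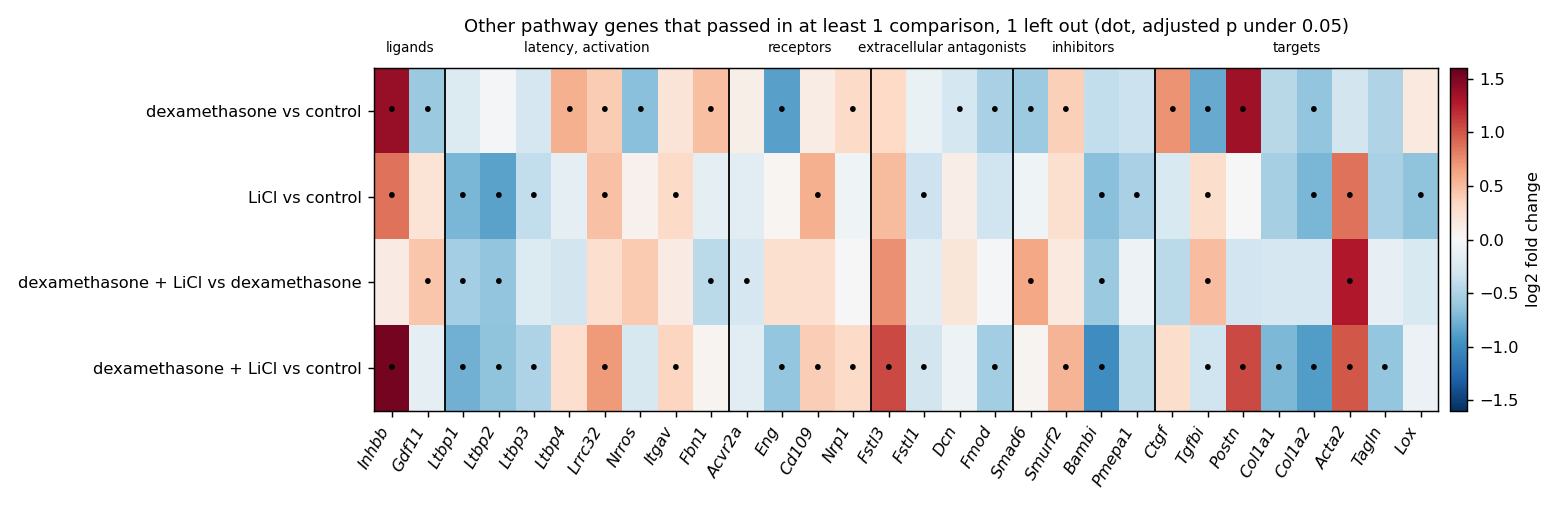
Log2 fold changes (colour) of 30 of the 31 other pathway genes that passed in at least 1 of the 4 pairwise comparisons, grouped by role, with a dot where the adjusted p was under 0.05. Inhbb and Postn are dark in the rows with dexamethasone against control (1.40 and 1.36 for dexamethasone alone), and Ltbp1 and Ltbp2 are lower in each comparison that adds LiCl.

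Of 4 other ligand genes tested, Inhbb, which encodes the subunit of activin B, rose with each drug. It was at 8.55, 5.94 and 5.59 CPM in control, 18.4, 18.1 and 17.2 CPM with dexamethasone, 12.4, 14.1 and 10.7 CPM with LiCl and 18.6, 20.6 and 19.7 CPM with both drugs. All treated pools lay above all control pools. The log2 fold change was 1.40 with dexamethasone (SE 0.16, adjusted p = 1.8e-05), 0.87 with LiCl (SE 0.15, adjusted p = 0.00201) and 1.53 with both drugs (SE 0.15, adjusted p = 3.4e-06). LiCl added to dexamethasone gave 0.13 for Inhbb, which did not pass. The activin subunit genes thus differed, with Inhbb higher in each treated group and Inhba not past its error with either drug alone. Gdf11, a ligand close to myostatin, fell by 0.59 with dexamethasone (SE 0.11, adjusted p = 0.00267) and rose by 0.45 when LiCl was added (SE 0.12, adjusted p = 0.0276) on the log2 scale. Inha and Inhbe did not pass, and Inhbc, Mstn and Nodal had too few counts.

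Of the 4 genes named for latent TGF-beta binding proteins, Ltbp1, Ltbp2 and Ltbp3 fell with LiCl. Ltbp1 was at 371, 318 and 323 CPM in control, 294, 274 and 299 CPM with dexamethasone, 202, 199 and 208 CPM with LiCl and 199, 198 and 195 CPM with both drugs. Both groups with LiCl lay below both groups without it. The log2 fold change was -0.73 with LiCl (SE 0.08, adjusted p = 2.7e-05) and -0.55 when LiCl was added to dexamethasone (SE 0.08, adjusted p = 0.000448). Ltbp2 fell from 88.1 ± 2.80 to 48.8 ± 2.51 CPM with LiCl (log2 fold change -0.85, SE 0.09, adjusted p = 3.4e-05) and by 0.63 when LiCl was added to dexamethasone (SE 0.09, adjusted p = 0.000746). Ltbp3 fell by 0.39 with LiCl (SE 0.12, adjusted p = 0.0468), a call lost without any 1 of 9 of the 12 libraries (adjusted p up to 0.149), whereas Ltbp4 did not pass with LiCl and rose by 0.57 with dexamethasone (SE 0.11, adjusted p = 0.00232). Markers of cartilage and bone cells were read beside these falls. Of the 8 chondrocyte markers, 1 was lower and none was higher with LiCl. The hypertrophic chondrocyte markers summed to 2951 to 3415 CPM in control, 2533 to 4230 CPM with dexamethasone, 1629 to 1833 CPM with LiCl and 2705 to 3269 CPM with both drugs, and of the 4 Col10a1 (-1.02) and Mmp13 (-0.89) were lower with LiCl and Mmp13 (-1.02) when LiCl was added to dexamethasone. The osteoblast markers summed to 1253 to 1431 CPM in control and 843 to 1111 CPM with LiCl. Their sums were 790 to 1589 CPM with dexamethasone and 782.5 to 1322 CPM with both drugs, which overlapped. None of the 5 tested passed with LiCl or when LiCl was added to dexamethasone. The part of these cells in the levels of the Ltbp genes was not tested. Lrrc32 (GARP), which tethers latent TGF-beta to the cell surface, rose by 0.41 with dexamethasone, 0.47 with LiCl and 0.68 with both drugs against control on the log2 scale (adjusted p = 0.0332, 0.0139 and 0.000431). Its call with dexamethasone was lost without any 1 of 5 of the 12 libraries (adjusted p up to 0.134). Nrros, a related tether of macrophages and microglia, fell by 0.67 with dexamethasone (adjusted p = 0.0202), where 5 of 9 macrophage markers were higher and 1 was lower, and the part of these cells in its level was not tested. Itgav, the integrin subunit that frees TGF-beta from its latent form, rose by 0.31 with LiCl (adjusted p = 0.0267). Fbn1, the fibrillin to which the latent complexes bind, rose by 0.48 with dexamethasone (adjusted p = 0.0119) and fell by 0.44 when LiCl was added (adjusted p = 0.0299). The call of this fall was lost without any 1 of 5 of the 12 libraries (adjusted p up to 0.127). In the whole list of 11 tested, 3 rose and 1 fell with dexamethasone, 2 rose and 3 fell with LiCl, and 3 fell and none rose when LiCl was added to dexamethasone, beside the shares of all genes given above.

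Among 7 other receptors and co-receptors, Eng, the endoglin of endothelial cells, fell with dexamethasone from 42.9 ± 3.80 to 23.4 ± 4.20 CPM (log2 fold change -0.87, SE 0.12, adjusted p = 0.000166). It was also lower with both drugs than in control (-0.62, SE 0.12, adjusted p = 0.00150), and the endothelial marker sum given above was lower in the same groups. The part of endothelial cells in the level of Eng was not tested. Cd109, a co-receptor that dampens the signal, rose by 0.57 with LiCl (SE 0.13, adjusted p = 0.00869), and Nrp1, a neuropilin that binds TGF-beta, rose by 0.31 with dexamethasone (SE 0.08, adjusted p = 0.0180). Acvr2a, a type II activin receptor, fell by 0.27 when LiCl was added to dexamethasone (SE 0.07, adjusted p = 0.0386). This call was lost without any 1 of 10 of the 12 libraries (adjusted p up to 0.131). Acvr1b did not pass with LiCl (0.43, adjusted p = 0.0561) and passed there with the replicate block (0.42, adjusted p = 0.0356). Acvrl1 and Tgfbr3l did not pass, and Acvr1c and Acvr2b had too few counts.

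Of 5 extracellular binding proteins, 2 fell with dexamethasone, where 5.49% of all genes were lower. They were the small proteoglycans Fmod (-0.51, SE 0.11, adjusted p = 0.00453) and Dcn (-0.29, SE 0.07, adjusted p = 0.0207), which bind TGF-beta in the matrix. Fstl1, a relative of follistatin, fell by 0.33 with LiCl (adjusted p = 0.0219). Fstl3, which like follistatin binds activin, was at 3.00 ± 0.587 CPM in control and at 6.09 ± 1.90 CPM with both drugs (log2 fold change 1.05, SE 0.25, adjusted p = 0.00674). The transducers Smad2, Smad3 and Smad4 and the SMAD anchor Zfyve9 did not pass in any of the 4 pairwise comparisons, and with the replicate block Smad2 passed as lower when LiCl was added to dexamethasone (-0.29, adjusted p = 0.0318).

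Among 11 intracellular and membrane inhibitors, Smad6, which mainly curbs the related bone morphogenetic protein branch, fell from 13.1 ± 2.94 to 8.66 ± 0.723 CPM with dexamethasone (log2 fold change -0.58, SE 0.16, adjusted p = 0.0256). It was at 13.4 ± 1.37 CPM with both drugs, a rise of 0.62 over dexamethasone alone (SE 0.16, adjusted p = 0.0258). Both calls of Smad6 were lost without single libraries (adjusted p up to 0.108 and up to 0.0909). Bambi, a decoy receptor, fell by 0.67 with LiCl (SE 0.15, adjusted p = 0.0108), by 0.59 when LiCl was added to dexamethasone (SE 0.17, adjusted p = 0.0376) and by 0.99 with both drugs against control (SE 0.16, adjusted p = 0.000318). Its call for LiCl added to dexamethasone was lost without any 1 of 6 of the 12 libraries (adjusted p up to 0.176). Smurf2, a ubiquitin ligase that marks the receptors for degradation, rose by 0.38 with dexamethasone (adjusted p = 0.0106) and by 0.54 with both drugs (adjusted p = 0.000394). Pmepa1, a feedback inhibitor induced by TGF-beta, fell by 0.52 with LiCl (adjusted p = 0.0344).

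The textbook target genes of TGF-beta did not move in 1 direction. Of 19 tested, 3 rose and 2 fell with dexamethasone, 2 rose and 2 fell with LiCl, 2 rose and none fell when LiCl was added to dexamethasone, and 3 rose and 4 fell with both drugs against control. Of all genes, 5.45% rose and 5.49% fell with dexamethasone, 4.71% and 5.9% with LiCl, 3.82% and 4.78% when LiCl was added, and 10.8% and 11.8% with both drugs. Postn, the matrix protein periostin of perichondrium and periosteum, rose from 590 ± 127 to 1512 ± 168 CPM with dexamethasone (log2 fold change 1.36, SE 0.15, adjusted p = 1.3e-05). Ctgf, a matricellular growth factor, rose by 0.71 with dexamethasone (SE 0.14, adjusted p = 0.00251). Genes of this list are known to respond to other signals as well.

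Tgfbi, a matrix protein named for its induction by TGF-beta, went the other way. Its pools were at 334, 373 and 321 CPM in control, 211, 184 and 193 CPM with dexamethasone, 405, 399 and 449 CPM with LiCl and 279, 265 and 283 CPM with both drugs, and the 4 groups did not overlap. The fall with dexamethasone was -0.81 (SE 0.09, adjusted p = 1.1e-05), and LiCl added to dexamethasone raised it by 0.49 (SE 0.09, adjusted p = 0.00212). Its rise with LiCl alone was 0.28 (SE 0.08, adjusted p = 0.0427), a call lost without any 1 of 9 of the 12 libraries (adjusted p up to 0.183). Col1a2, a chain of type I collagen, fell by 0.63 with dexamethasone (adjusted p = 0.0480), a call lost with DESeq2 (0.0840) and without any 1 of 8 of the 12 libraries (up to 0.189), and by 0.73 with LiCl (adjusted p = 0.0225). Lox, the enzyme that crosslinks collagen and elastin, fell from 464 ± 23.3 to 298 ± 36.8 CPM with LiCl (log2 fold change -0.64, SE 0.10, adjusted p = 0.00129). Acta2, the actin of smooth muscle and myofibroblasts, rose from 15.2 ± 1.90 to 27.7 ± 5.07 CPM with LiCl (log2 fold change 0.87, SE 0.14, adjusted p = 0.00130) and from 12.3 ± 0.678 to 30.1 ± 4.55 CPM when LiCl was added to dexamethasone (1.29, SE 0.16, adjusted p = 9.9e-05). The skeletal muscle marker sums given above were higher in the same comparisons, with 7 of 8 markers higher in each. With dexamethasone against control 4 of the 8 were higher, while Acta2 did not pass without the replicate block or with it (-0.32 with the block, adjusted p = 0.141). The part of muscle cells in the level of Acta2 was not tested. Tagln, another smooth muscle gene, was lower with both drugs than in control (-0.61, SE 0.18, adjusted p = 0.0213), a call lost without single libraries (adjusted p up to 0.0930). With dexamethasone it was at -0.48 (adjusted p = 0.103) and with LiCl at -0.52 (adjusted p = 0.0703), and with the replicate block it passed in both (-0.51, adjusted p = 0.00142, and -0.54, adjusted p = 0.00105).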

How the data were processed

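RNA was measured in 12 libraries, 3 pools of bones in each of 4 groups, named by the labels. The files deposited by the authors hold raw counts for each gene symbol. As the study's methods state, the authors aligned reads with Subread, removed duplicates with Picard, counted with HTSeq-count and then joined technical replicates. Duplicate removal can limit the counts of abundant transcripts. Versions are not given in the sources used here. For these rat libraries a human build is named in the notes of the submitters, so the build behind the counts is not settled, and no coordinates rest on it. The library kit marks strand, but the strand setting of the counting is not given, so reads of overlapping genes may be shared. Counting errors rest on 9055581 to 21953446 counts per library.

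The 12602 genes that reached 60 counts in 2 or more libraries, the filter of the study's methods, were fitted over all 12 libraries with edgeR 4.0.16 in R 4.3.3 (TMM, quasi-likelihood F-test, two-sided, with group and no other term). P-values were adjusted with the Benjamini-Hochberg method, and no fold minimum was set. The fit was tested on simulated data. Alternatives were RLE scaling, DESeq2 1.42.0, filterByExpr, no count filter, the replicate block, only the groups compared, a 2-fold minimum and each library left out. Those for other pathway genes were added after the results were seen. The 10 genes, the lists, the markers and the tests were chosen with earlier results of these data known. All 10 genes are described, and from each other list up to 4 genes with the smallest adjusted p per comparison. Some genes that these rules give are not reported here. After the group means were removed, Pearson's r of same-numbered libraries was 0.21 to 0.30 for LiCl with control, 0.19 to 0.50 for the combined group with dexamethasone and 0.13 to 0.29 for it with control, so the numbers were taken to pair these, and 0.03 to 0.17 for dexamethasone with control. The study's text says that each pool came from 1 rat of 3, but not which number is which rat. Promoter windows are from RefSeq (GRCr8). Figures were drawn with matplotlib 3.10.9 in Python 3.11.15.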

Additional observations from a re-analysis of the deposited data

How the results depend on the processing

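The calls of Tgfbr3 with dexamethasone and with both drugs against control, of Fst with dexamethasone, with LiCl and for LiCl added to dexamethasone, of Inhba for LiCl added to dexamethasone and for both drugs, and of Tgfb1, Tgfb3 and Tgfbr2 for both drugs against control were the same in every alternative without a fold minimum. With a 2-fold minimum, 358, 199, 172 and 551 of all genes passed in the 4 pairwise comparisons in the order given in the report, where 1379, 1338, 1084 and 2848 had passed without it, and 1 of the 10 genes passed in each. With only the groups compared in the fit, 875 genes passed for dexamethasone against control. For LiCl against control, 4 of the 10 genes passed with DESeq2 and 4 with the replicate block, where 2 had passed. For the interaction, 25 genes passed with DESeq2, 37 with no count filter and 3 with the replicate block, where 1 had passed, and none was one of the 10. The block changed no other call of the 10 genes. With the block, 15 of the other pathway genes passed for LiCl added to dexamethasone, and it took away none of their calls. With only the groups compared, the calls of Lrrc32, Nrros, Nrp1, Dcn and Smad6 with dexamethasone, Itgav, Pmepa1 and Tgfbi with LiCl and Acvr2a for LiCl added to dexamethasone were lost. Tgfbi and Acvr2a were lost there also with filterByExpr and with no count filter, as was Lrrc32 with the latter. Under RLE scaling, medians over all genes shifted by -0.00226 to 0.00198 (log2).

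With 1 library left out, the genes passing numbered 1013 to 1349 for dexamethasone, 701 to 1577 for LiCl, 587 to 1454 for LiCl added to dexamethasone, 2010 to 3125 for both drugs and 0 to 2 for the interaction, and of the 10 genes 1 to 4 passed for LiCl and 2 to 4 for LiCl added to dexamethasone. The other pathway genes passing numbered 10 to 17 of 61 for dexamethasone, 8 to 19 for LiCl, 4 to 12 for LiCl added to dexamethasone and 18 to 24 for both drugs. Tgfb3 passed for LiCl added to dexamethasone without dexamethasone replicate 2 (adjusted p = 0.0350). Among the other pathway genes reported here, beside Smad6, Tgfbi with LiCl, Ltbp3, Tagln and Col1a2 with dexamethasone, for which the report gives it, these calls were lost without 1 or more single libraries, with the highest adjusted p in brackets: with dexamethasone, Fbn1 (0.0527), Nrros (0.0732), Lrrc32 (0.134), Dcn (0.0616), Smurf2 (0.0503) and Nrp1 (0.0833). The same held with LiCl for Lrrc32 (0.0846), Itgav (0.103), Fstl1 (0.117), Bambi (0.0536), Pmepa1 (0.123) and Col1a2 (0.104), and for LiCl added to dexamethasone for Fbn1 (0.127), Bambi (0.176), Gdf11 (0.113) and Acvr2a (0.131), and with both drugs for Cd109 (0.182), Fstl1 (0.0916) and Tgfbi (0.0627).

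Values near 0 that had not passed changed sign. Skil with dexamethasone was at -0.0027 with filterByExpr, -0.0129 with no count filter and -0.0060 with the replicate block, and Skil with LiCl at -0.00091 and -0.0024 with the last of these. With 1 library left out, the log2 fold change with dexamethasone was -0.0326 to 0.0775 for Tgfbr1, -0.138 to 0.0558 for Inhba and -0.0883 to 0.0634 for Skil. With LiCl it was -0.00765 to 0.187 for Inhba, -0.0667 to 0.152 for Smad7 and -0.0629 to 0.0645 for Skil, and with both drugs -0.175 to 0.0405 for Smad7. The interaction was -0.000741 to 0.169 for Tgfb3, -0.0257 to 0.050002 for Tgfbr2 and -0.154 to 0.0669 for Fst. The causes were not tested. Depth limits the genes of few counts, such as Fst, most.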
